A study of Mus musculus with 2 samples.

Results

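Group 2 innate lymphoid cells (ILC2s) are tissue lymphocytes without antigen receptors that release IL-5 and IL-13. Of the 32285 genes in the count tables, 5 genes that make neural messengers were read in lung ILC2s. They were taken by name: Tph1 and Ddc for serotonin, Chat and Slc18a3 for acetylcholine, and Penk for enkephalins. The cells came from WT mice and from mice lacking PAC1 (Pac1-KO), a nuclear phosphatase encoded by Dusp2, both on the C57BL/6J background, and no treatment is named for them. Live, lineage-negative lung cells bearing Sca-1, ST2 and CD90.2 were sorted, pooled over several mice, and run as 1 droplet-based scRNA-Seq library per genotype, so that no difference has a replicate check and no test between genotypes was possible. The sort pools mice, and no label ties a cell to a mouse. All 95% intervals given cover counting error only.

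Serotonin is made from tryptophan. Tph1, tryptophan hydroxylase outside the nervous system, carries out the rate-limiting step with the cofactor tetrahydrobiopterin, and Ddc, a decarboxylase that serotonin shares with dopamine, completes it. Chat joins choline to an acetyl group, and Slc18a3, whose gene lies inside the Chat locus, loads acetylcholine into vesicles. Penk encodes a precursor from which proprotein convertases cut enkephalins, the short opioid peptides. ILC2s are known as targets of nerve-derived signals, and activated ILC2s are also known to make some of these messengers themselves. Cells were further described by whether they held transcripts of Il5 or Il13, the type 2 cytokines, of Nr4a3, a nuclear receptor induced early in activation, or of Calca, which encodes calcitonin gene–related peptide (CGRP). These 4 genes are called the status genes.

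A barcode counted as a cell when it had 500 or more detected genes and no more than 10% of its transcripts were mitochondrial. These were 8394 of 10866 WT barcodes with 54579034 unique molecular identifiers (UMIs, 1 for each captured transcript) and 7087 of 9495 Pac1-KO barcodes with 58338886 UMIs. Median depth was 4186.5 UMIs in WT and 5577 in Pac1-KO. Levels are UMIs of a gene in every 1000000 UMIs of the library (CPM). Dusp2 gave 1419 UMIs in WT and 5 UMIs in Pac1-KO, which matched the labels. All 8 ILC2 markers were found in both libraries, among them Gata3, the lineage's transcription factor, in 88.8% of the cells in the WT library and 90.7% in the other. The libraries had 15 passing barcodes in common.

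Tph1 was the member with the most UMIs, and it lies on chromosome 7 (GRCm38, 46644641 to 46672537, minus strand). RefSeq gives it 2 start sites in GRCm38.p6. Their windows, from 250 bases before to 50 bases after each start, are shown because Tph1 was the only member with at least 20 UMIs in both libraries once cells were brought to equal depth, and because CGRP acts through cAMP. Capitals mark TGACG, the core of the cAMP response element, on either strand.

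Tph1 upstream start, chr7:46672488-46672787, minus strand: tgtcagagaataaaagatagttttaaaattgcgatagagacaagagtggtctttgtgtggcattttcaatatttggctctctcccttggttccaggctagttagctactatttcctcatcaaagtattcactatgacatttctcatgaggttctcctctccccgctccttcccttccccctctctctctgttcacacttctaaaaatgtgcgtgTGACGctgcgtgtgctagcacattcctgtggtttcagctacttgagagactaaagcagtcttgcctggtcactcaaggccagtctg

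Tph1 downstream start, chr7:46667328-46667627, minus strand: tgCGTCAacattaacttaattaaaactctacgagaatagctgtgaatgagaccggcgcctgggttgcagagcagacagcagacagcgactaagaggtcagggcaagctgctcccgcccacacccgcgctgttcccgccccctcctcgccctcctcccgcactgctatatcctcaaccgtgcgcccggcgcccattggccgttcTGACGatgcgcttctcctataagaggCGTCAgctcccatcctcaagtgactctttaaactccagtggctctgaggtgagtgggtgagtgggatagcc

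The upstream window held 1 core, whose first base lay 36 bases before the start. The downstream window held 3, at 248, 47 and 21 bases before the start. At least 1 core was found in 20.8% of all 32851 promoter windows of this length and at least 3 in 1.03%. The full palindrome TGACGTCA was in neither Tph1 window and in 1.79% of all windows, and AAAGGTCA, the element bound by NR4A receptors, was in neither and in 1.51%. These matches describe letters in the windows only.

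Tph1 and Penk transcripts were present in a minority of ILC2s and were less abundant in the Pac1-KO than in the WT library. Ddc was rare and had more UMIs in Pac1-KO, and transcripts for acetylcholine synthesis were not found. Within each library Tph1 was more abundant in cells that held Il5, Il13, Nr4a3 or Calca. In the WT library Tph1 gave 1226 UMIs, or 22.5 CPM (95% Poisson interval 21.2 to 23.8). In the Pac1-KO library it gave 571 UMIs, or 9.79 CPM (9.0 to 10.6). The level was thus 2.30-fold higher in WT, a log2 ratio of Pac1-KO over WT of −1.20 (exact binomial interval −1.34 to −1.05). Over all 12427 genes with at least 50 UMIs the median log2 ratio was 0.19, and relative to this median gene the Tph1 ratio was −1.39.

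Penk (chromosome 4, 4133531 to 4138819, minus strand) gave 181 UMIs and 3.32 CPM (2.85 to 3.84) in WT, and 91 UMIs and 1.56 CPM (1.26 to 1.92) in Pac1-KO. The log2 ratio was −1.09 (−1.47 to −0.72). This ratio depended on a single cell. In Pac1-KO 1 cell held 65 of the 91 Penk UMIs (71.4%), whereas the WT cell with the most held 28. Without the top cell of each library 153 WT and 26 Pac1-KO UMIs were left, and the log2 ratio was −2.65 (−3.31 to −2.05). The Pac1-KO cell had 22296 UMIs, 4.0 times the median depth, with 30 Gata3, 19 Il1rl1, 38 Il5 and 11 Il13 UMIs, and it also held 1 T cell marker and 1 endothelial marker.

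Ddc (chromosome 11, 11814101 to 11898144, minus strand) was near the limit of detection. It gave 5 UMIs in 5 WT cells and 16 UMIs in 14 Pac1-KO cells, or 0.0916 CPM (0.0297 to 0.214) and 0.274 CPM (0.157 to 0.445). The log2 ratio was 1.58 (0.07 to 3.39), but relative to the median gene its interval ran from −0.12 to 3.20. Chat (chromosome 14, 32408203 to 32465989) and Slc18a3 (32462438 to 32464850 on the same strand) gave 0 UMIs in both libraries. A count of 0 allows up to 0.0550 CPM in WT and 0.0514 CPM in Pac1-KO, or a UMI in up to 0.0357% of WT and 0.0423% of Pac1-KO cells, so that acetylcholine synthesis transcripts were not detectable at this depth.

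Counting at the 3′ end gives about 1 UMI per captured transcript whatever its length, so the CPM can be set in order as counted. How well each gene was captured was not measured, so this is an order of UMIs. In both libraries Tph1 stood above Penk and Penk above Ddc, with intervals that did not overlap. In Pac1-KO the order of Penk and Ddc rested on the cell with 65 Penk UMIs. Without it Penk stood at 0.446 CPM (0.291 to 0.653), which overlaps the interval of Ddc, and by cells Ddc was found in 14 (0.198%) and Penk in 11 (0.155%). Ddc stood above the limit for Chat and Slc18a3 in Pac1-KO only. In WT the Ddc interval reached below that limit.

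**Figure D1:**
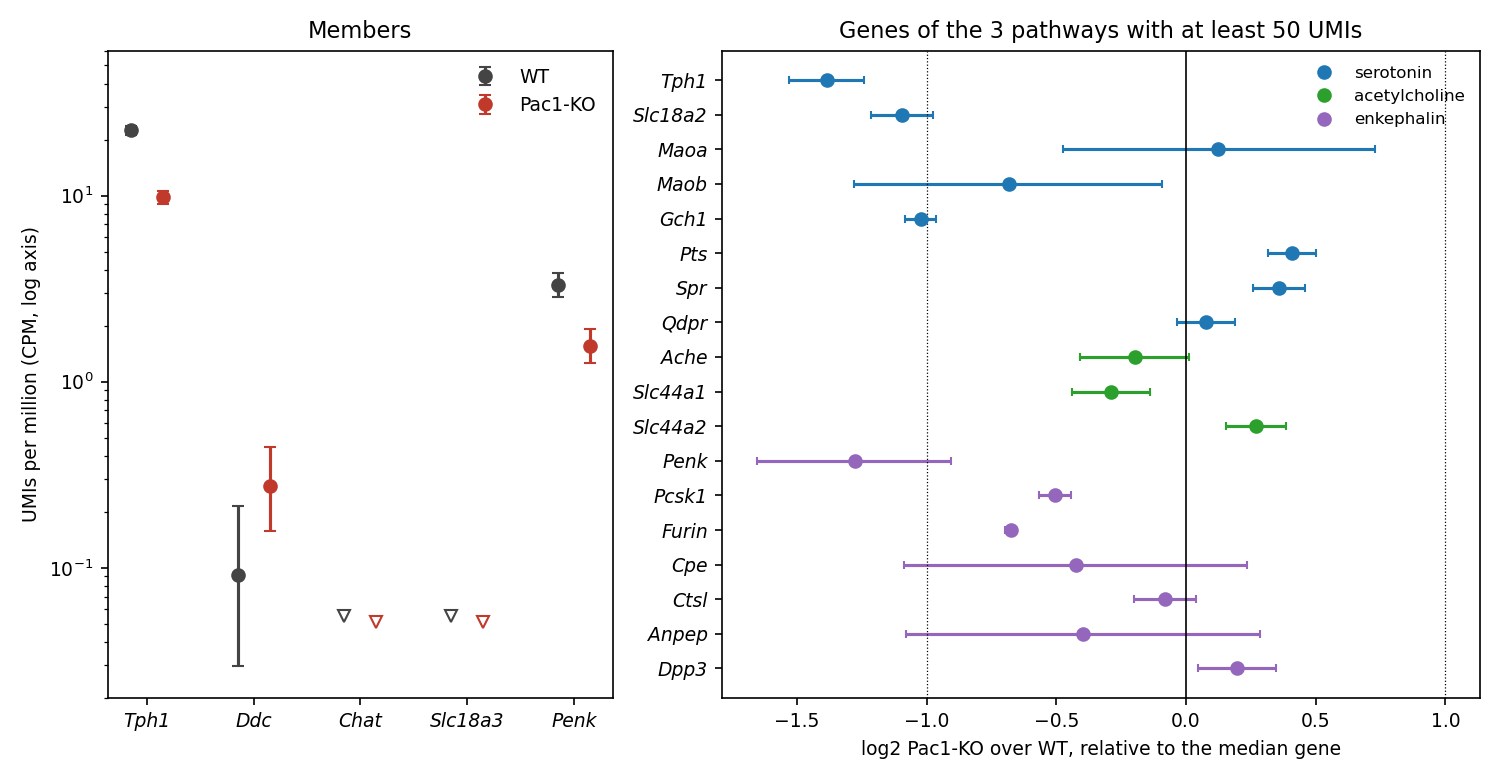
Left, CPM (log axis) of the 5 members in the WT (grey) and Pac1-KO (red) library with exact 95% Poisson intervals, and open triangles at the limit that 0 UMIs allow. Right, log2 ratio of Pac1-KO over WT relative to the median gene with exact 95% intervals for the serotonin, acetylcholine and enkephalin genes with at least 50 UMIs, with dotted lines at 2-fold. Tph1, Slc18a2, Gch1 and Penk lie beyond the lower line.

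Of the 5 members, 2 had at least 50 UMIs over both libraries, 1 had fewer and 2 were at 0. Tph1 and Penk were both more than 2-fold lower in Pac1-KO relative to the median gene, as were 5.09% of the 12427 genes. No member with 50 UMIs was more than 2-fold higher, as were 2.07% of genes. These shares correspond to 633 lower and 257 higher genes. Without centring on the median gene they were 410 and 439, and both members stayed more than 2-fold lower.

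The share of cells with a transcript gave the same order. A Tph1 UMI was found in 505 WT cells (6.02%, 5.52 to 6.55) and 276 Pac1-KO cells (3.89%, 3.46 to 4.37), although the Pac1-KO cells were deeper. For comparisons at equal depth, 1500 UMIs were drawn at random from each cell (thinning), and the 760 WT and 523 Pac1-KO cells with fewer were left out. Then 169 of 7634 WT cells (2.21%, 1.90 to 2.57) and 77 of 6564 Pac1-KO cells (1.17%, 0.927 to 1.46) held Tph1. A Penk UMI was found in 49 WT cells (0.584%, 0.432 to 0.771) and 11 Pac1-KO cells (0.155%, 0.0775 to 0.278), and after thinning in 21 and 4. Counted by cells, so that the top cell weighs no more than another, the WT share of Penk cells was above the Pac1-KO share with intervals that did not overlap.

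Transcripts of both genes were gathered in few cells. In WT, 277 of the 505 Tph1 cells had 1 UMI, 87 had 2 and 141 had 3 or more, up to 29. In Pac1-KO the numbers were 173, 40 and 63, up to 22. The 92 WT cells and the 53 Pac1-KO cells with the most Tph1 held at least 50% of its UMIs. In thinned cells the variance of Tph1 was 1.99 times the mean in WT and 1.89 times in Pac1-KO, where independent counts at 1 rate would give 1, and that of Penk was 3.04 and 3.44 times. Intervals on UMI sums are therefore too narrow for these genes, and shares of cells, which count each cell once, were read beside them.

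**Figure D2:**
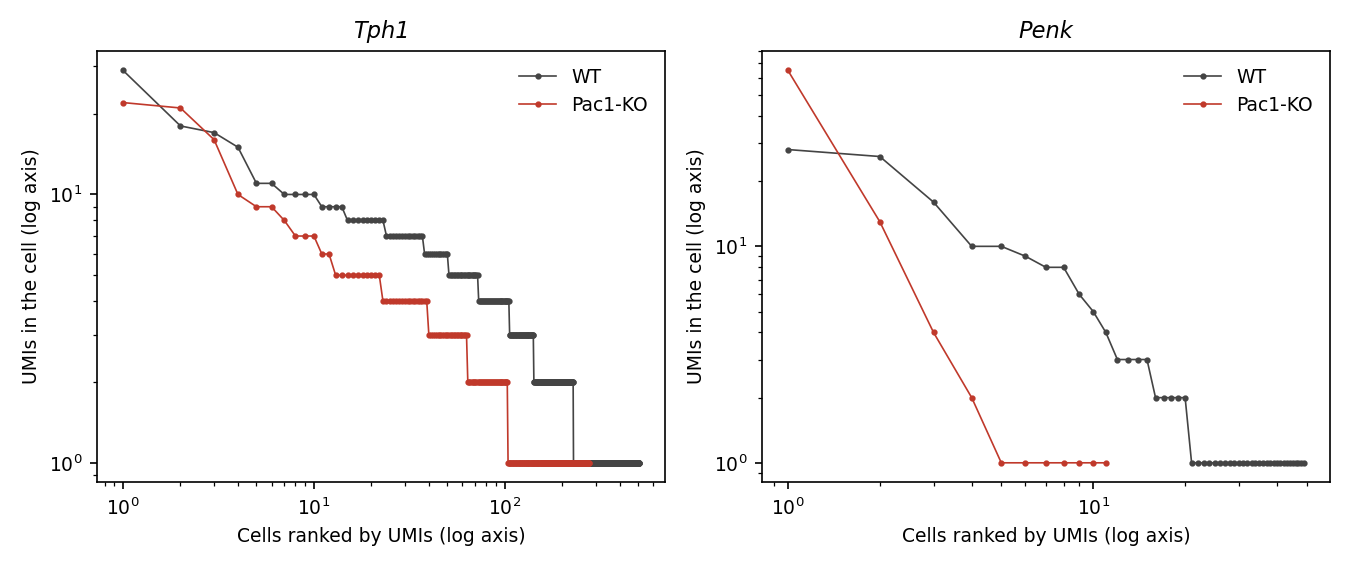
UMIs of Tph1 (left) and Penk (right) in each cell that held any, ranked from the highest (both axes log), in the WT (grey) and Pac1-KO (red) library. Tph1 declines gradually in both libraries, with 29 and 22 UMIs in the top cells, and Penk in Pac1-KO has 65 UMIs in 1 cell and at most 13 in any other.

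Most cells with Tph1 or Penk carried ILC2 transcripts, but some also held markers of other cell types. Among Tph1 cells, Gata3 was found in 97.4% (WT) and 98.2% (Pac1-KO), against 88.2% and 90.4% of the other cells, at median depths of 8716 and 10268 UMIs against 4098 and 5507. The depths differ, so the shares of Gata3 are not at equal depth. In thinned cells the 8 ILC2 markers summed to 6899 CPM in WT Tph1 cells and 5630 CPM elsewhere. In Pac1-KO the sums were 5905 and 5198 CPM. Of the 8 markers, 6 were higher in WT Tph1 cells and 3 in Pac1-KO Tph1 cells. In Pac1-KO these were Gata3, Il1rl1 and Rora, whereas Il7r, Klrg1, Thy1, Ly6a and Il17rb were lower. In thinned Penk cells the sums were 6667 CPM against 5655 CPM elsewhere in WT. In Pac1-KO they were 5167 against 5206 CPM on 4 cells, with stromal markers at 833 against 3.86 CPM on 5 UMIs. Before thinning, 48 of the 49 WT Penk cells and 10 of the 11 Pac1-KO Penk cells held Gata3. At least 2 markers of another type were held by some Penk cells. In WT these were T cell markers in 3, B cell markers in 1 and endothelial markers in 1. In Pac1-KO they were epithelial markers in 2 and stromal markers in 1. Mast cells also express Tph1. Their 6 markers summed to 13.2 CPM in WT and 28.8 CPM in Pac1-KO over all cells, and most of this was Cpa3 (698 and 1533 UMIs). Mcpt8, a basophil protease, gave 9 and 105 UMIs, and Mcpt4 0 and 1. In thinned Tph1 cells these markers gave 0 UMIs in WT and 1 in Pac1-KO. Without barcodes holding at least 2 markers of one other cell type, which removed 196 WT and 355 Pac1-KO barcodes, the Tph1 log2 ratio was −1.25. Tuft cells, which express Chat, were represented by at most 2 UMIs of any of their 4 markers in a library, and Trpm5 and Pou2f3 were at 0.

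As a reference for free RNA, barcodes with at least 2 B cell markers were examined. Tph1 was found in 0 of 10 WT barcodes, which allows up to 30%, and in 1 of 25 Pac1-KO barcodes (4.0%, 0.101 to 20.4), at median depths of 4297.5 and 5414 UMIs. These barcodes were too few to place the share of Tph1 cells above or below background. In the barcodes that the filter removed, Tph1 stood at 25.6 CPM in WT (18.4 to 34.7) and 6.17 CPM in Pac1-KO (3.19 to 10.8). The order of the genotypes there was as in the cells.

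Cells with more than 1 member were few. No cell held both Tph1 and Ddc in either library. Tph1 and Penk met in 6 WT and 2 Pac1-KO cells before thinning, where the product of their shares gives 2.95 and 0.428 cells and both genes were found in deeper cells. After thinning they met in 0 cells, where the product is 0.465 and 0.0469, too low for a count of 0 to be read. The vesicular monoamine transporter Slc18a2, which loads serotonin, was found with Tph1 in 9 thinned WT cells (product of shares 6.40) and 3 Pac1-KO cells (1.43). Hdc, which makes histamine, was found with Tph1 in 5 thinned WT cells, where the product is 1.55, and in 0 Pac1-KO cells, where it is 0.305. These counts are small and are given as descriptions.

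The other genes of serotonin handling were then described from a list of 16 genes, of which 8 had at least 50 UMIs, 3 were more than 2-fold lower in Pac1-KO and none higher relative to the median gene, beside 5.09% lower and 2.07% higher over all genes. The median of the list was −0.30 on this scale, where the median of all genes is 0. The same shares over all genes stand beside the lists that follow. Beside Tph1 the lower genes were Slc18a2, with 29.6 CPM in WT and 15.8 CPM in Pac1-KO (relative log2 ratio −1.10), and Gch1, with 106 and 59.4 CPM (−1.02). Gch1 is the first enzyme of tetrahydrobiopterin synthesis. Pts and Spr, later enzymes of that cofactor, stood the other way but under 2-fold. Pts had 28.3 and 42.7 CPM (0.41), and Spr had 24.9 and 36.4 CPM (0.36). Qdpr, which regenerates the cofactor, had 21.1 and 25.3 CPM (0.08), with a relative interval that included 0 (−0.03 to 0.19). Without centring, Slc18a2 and Gch1 had log2 ratios of −0.91 and −0.84 and were under 2-fold. The serotonin-degrading enzymes Maoa (43 and 57 UMIs) and Maob (58 and 44 UMIs) had intervals of the log2 ratio as counted that included 0, and Tph2, the neuronal hydroxylase, gave 0 UMIs.

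Of 7 genes of acetylcholine handling 3 had at least 50 UMIs, and none was 2-fold apart. Ache, which degrades acetylcholine, had 6.61 CPM in WT and 6.57 CPM in Pac1-KO. The choline transporters Slc44a1 and Slc44a2 had 13.6 and 12.7 CPM and 18.9 and 26.0 CPM. Slc5a7, the choline carrier of cholinergic neurons, was at 0 in both libraries. The transcripts present were thus those of breakdown and choline uptake, and those of synthesis and vesicle loading were not found.

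Of 10 genes of enkephalin processing 7 had at least 50 UMIs. Relative to the median gene 1 of these, Penk, was more than 2-fold lower and none higher, beside 5.09% lower and 2.07% higher over all genes. The median of the list was −0.42 on this scale. Of the convertases that cut precursors Furin and Pcsk1 were abundant, and Pcsk2 gave 0 UMIs in both libraries. Furin had 749 CPM in WT and 534 CPM in Pac1-KO, and Pcsk1 had 80.9 and 64.9 CPM, with log2 ratios as counted of −0.49 and −0.32. Carboxypeptidase E (Cpe), which trims the cut ends, gave only 43 and 39 UMIs. Enkephalin-degrading Dpp3 had 11.7 and 15.2 CPM, and Anpep gave 40 and 37 UMIs. Ctsl, which can also process the precursor, gave 1092 and 1257 UMIs.

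Other transmitter genes were few. Of 7 genes for histamine, GABA and glutamate 2 had at least 50 UMIs. Hdc was lower in Pac1-KO, with 9.09 CPM in WT and 4.82 CPM in Pac1-KO (relative log2 ratio −1.10), and the vesicular GABA transporter Slc32a1 had 102 and 72 UMIs. Of 21 further neuropeptide genes 4 had at least 50 UMIs and none was 2-fold apart. Pomc, the precursor of melanocortins and endorphin, stood at 20.7 CPM in WT and 33.6 CPM in Pac1-KO (log2 ratio as counted 0.70, 0.59 to 0.80), Adm at 8.94 and 15.0 CPM and Nmb at 13.8 and 17.8 CPM, whereas Calca stood at 493 and 351 CPM. Calcb, the second CGRP gene, gave 13 and 16 UMIs. Of 36 genes listed for receptors of these messengers, Chrna1os among them, 4 had at least 50 UMIs. The serotonin receptors Htr2a (173 UMIs in WT and 151 in Pac1-KO) and Htr1b (125 and 177 UMIs) led. The nicotinic subunits Chrnb2 (33 and 32 UMIs) and Chrnb1 (25 and 28 UMIs) followed, and then Chrna1os (12 and 20 UMIs), an antisense transcript that encodes no receptor. None of the 4 was 2-fold apart.

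Tph1 was next set against the status of cells, within each library and at equal depth. The status genes themselves were found in fewer Pac1-KO than WT thinned cells: Il5 in 19.6% against 33.2%, Il13 in 9.32% against 14.2%, Nr4a3 in 25.3% against 42.0% and Calca in 22.0% against 30.7%. In both libraries Tph1 was higher in cells with than in cells without each of these 4 genes.

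By Nr4a3 the Tph1 level in WT was 34.5 CPM in the 3208 cells with it and 11.3 CPM in the 4426 cells without, a ratio of 3.05-fold (2.31 to 4.07). In Pac1-KO it was 17.6 and 8.43 CPM, or 2.09-fold (1.39 to 3.13). The shares of cells with Tph1 were 3.37% and 1.38% in WT, and 1.99% and 0.898% in Pac1-KO. By Calca the ratio was 2.24-fold (1.73 to 2.91) in WT and 1.98-fold (1.30 to 2.99) in Pac1-KO, with 3.72% against 1.55% and 2.08% against 0.918% of cells. By Il5 it was 2.43-fold (1.87 to 3.17) in WT and 1.70-fold (1.08 to 2.61) in Pac1-KO, with 3.59% against 1.53% and 1.79% against 1.02% of cells. By Il13 it was 1.78-fold (1.29 to 2.42) in WT and 2.70-fold (1.62 to 4.32) in Pac1-KO, with 3.68% against 1.97% and 2.94% against 0.991% of cells. Without thinning, 8.44% against 1.92% of WT cells had Tph1 by Nr4a3 status, 9.52% against 2.61% by Calca, 8.86% against 2.80% by Il5 and 10.6% against 4.17% by Il13, with deeper cells among those with a status gene.

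These ratios rest on 241 thinned WT and 106 thinned Pac1-KO Tph1 UMIs and moved with the draw. Over 20 repeated thinnings the median ratio by Nr4a3 was 2.57-fold in WT (range 2.13 to 3.22) and 2.32-fold in Pac1-KO (1.5 to 3.34). By Calca the medians were 2.18-fold and 2.10-fold, by Il5 1.96-fold and 2.07-fold, and by Il13 1.91-fold and 2.35-fold. All 160 values, 4 genes in 2 libraries over 20 thinnings, were above 1-fold. With the status still read at equal depth but Tph1 read from all UMIs of the same cells, an alternative chosen after the data were seen, the ratios were 1.57-fold to 1.76-fold in WT and 1.79-fold to 2.21-fold in Pac1-KO. The order of the 4 status genes, and the order of the libraries, are within these ranges and are not read.

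**Figure D3:**
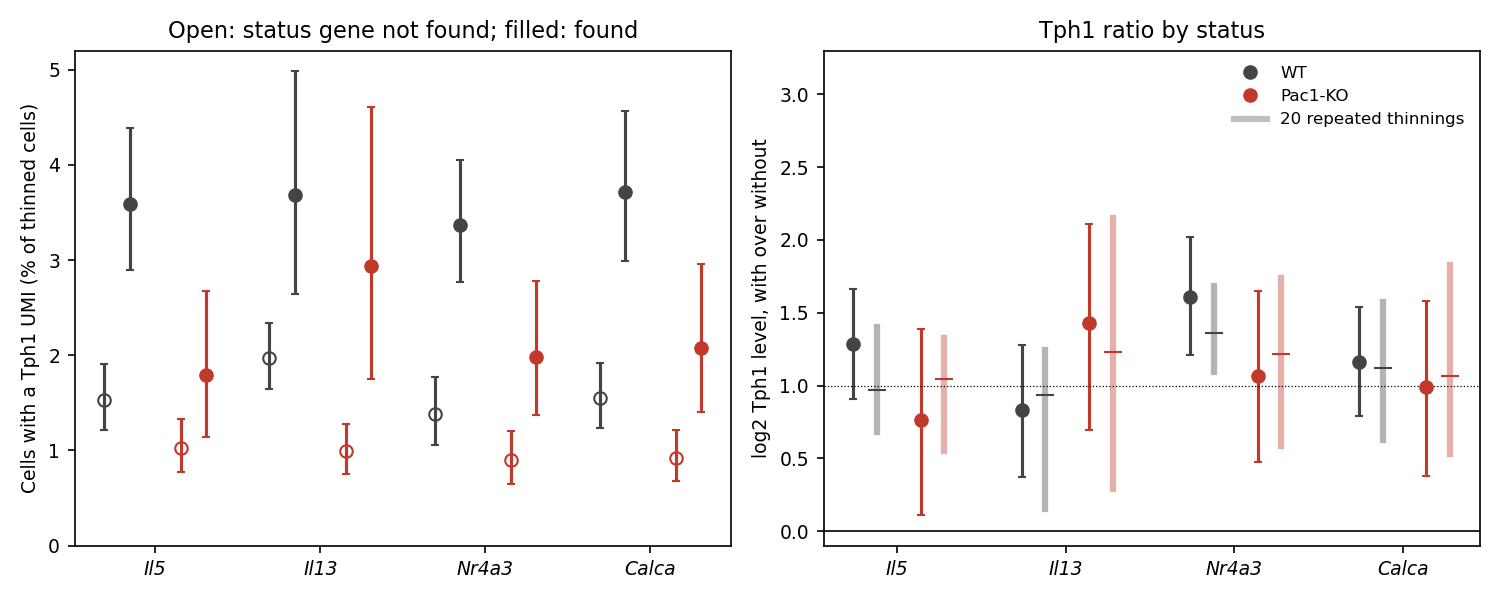
Left, percent of thinned cells with a Tph1 UMI where the status gene was found (filled) or not (open), with exact 95% binomial intervals, in WT (grey) and Pac1-KO (red). Right, log2 ratio of the Tph1 level in cells with over without the status gene, as points with exact 95% intervals, beside bars that span 20 repeated thinnings with their median. All points and bars lie above 0.

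The median gene had a log2 ratio of −0.13 to −0.27 in these comparisons, so the Tph1 ratios stood further above the typical gene than above 1-fold. Tph1 was the only one of the 5 members with at least 20 thinned UMIs in both libraries, and was counted against 10138 genes tested. It was more than 2-fold higher in both libraries with Nr4a3, as were 0.651% of genes, and 1.31% of genes were lower. It did not reach 2-fold in both libraries with Il5 (0.503% of genes higher, 0.977% lower), Il13 (0.207% higher, 1.63% lower) or Calca (0.503% higher, 0.838% lower). These counts changed with the draw and the setting, and a count over 1 member says little. With Tph1 read from all UMIs its WT ratio by Nr4a3 was 1.76-fold, under 2-fold.

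Each status gene was also read within cells with and within cells without each other one, in 24 comparisons a library. The comparisons of a library share the same cells and are not independent. All values in this paragraph come from a single thinning that was not repeated for them. Their intervals on levels and ratios are on UMI sums and so are too narrow. The Tph1 ratio was above 1-fold in 24 of 24 in WT, from 1.11-fold to 3.65-fold, with 18 intervals wholly above 1-fold. In Pac1-KO it was above 1-fold in 22 of 24, from 0.874-fold to 3.51-fold, with 12 intervals wholly above. In WT the Nr4a3 ratio was 2.77-fold within Calca-positive and 2.63-fold within Calca-negative cells. In Pac1-KO it was 2.23-fold and 1.64-fold, the last with an interval that included 1-fold (log2 −0.11 to 1.5). Within cells without Nr4a3 the Il5 ratio was 3.12-fold in WT and 0.880-fold in Pac1-KO (log2 −1.47 to 0.90). In the 4 classes of Il5 and Il13 thinned WT cells had 12.5 CPM with neither, 33.9 with Il5 only, 29.6 with Il13 only and 37.6 with both. In Pac1-KO the levels were 8.66, 12.4, 20.8 and 30.8 CPM. Cells with neither cytokine had the lowest Tph1 level in both libraries. In WT its interval (10.0 to 15.5) lay below those of the other 3 classes, which overlapped each other, and in Pac1-KO (6.67 to 11.1) it overlapped those of Il5 only and Il13 only. In WT Tph1 also stood higher with more Il5 UMIs, from 14.3 CPM at 0 to 20.4 at 1, 24.9 at 2, 42.6 at 3 to 5 and 89.7 at 6 or more (65.2 to 120). In Pac1-KO it was 9.47, 6.90, 36.3, 24.5 and 13.2 CPM, the last on 3 UMIs, without a steady order. The other status genes differed from this. By Il13 the same bins rose in WT (18.9, 31.2, 31.9, 39.5 and 53.8 CPM) and in Pac1-KO (9.30, 14.1, 28.4, 49.8 and 58.8 CPM). By Nr4a3 and Calca the WT level was lower at 6 or more (25.8 and 40.2 CPM) than at 3 to 5 (51.6 and 51.2 CPM). In Pac1-KO it was highest at 6 or more by both (37.7 and 34.7 CPM, on 3 and 5 UMIs).

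The number of status genes found in a cell put these together. With Tph1 read from all UMIs, WT cells had 10.5 CPM (8.78 to 12.4) with none, 18.2 with 1, 26.9 with 2, 38.2 with 3 and 33.0 (25.3 to 42.4) with all 4. Pac1-KO cells had 5.56 CPM (4.68 to 6.57), 7.40, 17.3, 23.5 and 11.9 (6.36 to 20.4). The share of cells with Tph1 went from 2.73% to 14.0% in WT and from 2.10% to 11.1% in Pac1-KO between none and 3, and was 11.6% and 8.97% with all 4. Depth went with it, from a median of 3818 to 6325 UMIs in WT and from 5340 to 8099 in Pac1-KO. In WT cells at equal depth the shares for 0 to 4 status genes were 0.820%, 1.65%, 2.98%, 5.89% and 3.38%. In Pac1-KO they were 0.662%, 1.21%, 2.08%, 3.21% and 2.56%. The shares with all 4 rested on 7 and 2 cells. How much of the difference in the unthinned shares came from depth was not tested. At equal depth the levels for 0 to 4 status genes were 7.03, 16.5, 27.2, 56.7 and 38.6 CPM in WT and 7.29, 9.18, 17.7, 29.6 and 25.6 CPM in Pac1-KO, the last on 12 and 3 UMIs.

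**Figure D4:**
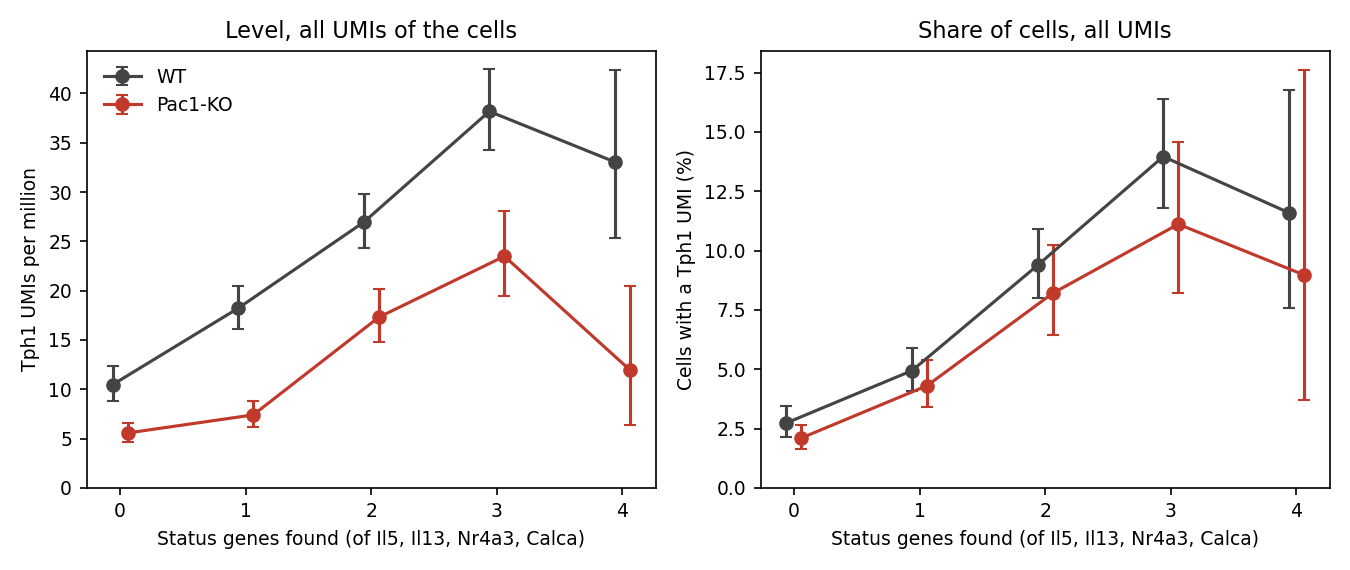
Tph1 level in CPM (left) and percent of cells with a Tph1 UMI (right) by the number of status genes found in the thinned cell, with Tph1 read from all UMIs of the cell, in WT (grey) and Pac1-KO (red), with exact 95% intervals. Both quantities are higher with 3 status genes than with 0 in both libraries, and the Pac1-KO level lies below the WT level at each number.

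Because fewer Pac1-KO cells held status genes, the genotypes were also compared within classes. With all UMIs the log2 ratio of Pac1-KO over WT was −0.91 (−1.26 to −0.56) in cells with 0 status genes, −1.30 with 1, −0.64 with 2, −0.70 with 3 and −1.47 (−2.46 to −0.59) with 4. By single genes it was −1.01 in Il5-positive and −1.12 in Il5-negative cells, and −0.88 in Nr4a3-positive and −1.20 in Nr4a3-negative cells. At equal depth these values were −1.11, −0.59, −0.97 and −0.42 (−0.93 to 0.08), and −0.43 (−1.20 to 0.30) in Il13-positive cells, so that 2 of these 5 intervals included 0. In Il13-negative, Calca-positive and Calca-negative cells the log2 ratio was −1.03, −0.96 and −0.78, with intervals below 0. Tph1 was thus lower in Pac1-KO within each of these classes when all UMIs were read. Weighting the 5 Pac1-KO levels by the WT mix of classes gave 12.4 CPM instead of 9.77 CPM, against 22.5 CPM in WT, and moved the log2 ratio from −1.20 to −0.86. In cells thinned to 1500 UMIs the ratio within 0 status genes was 0.05 (−0.70 to 0.82) on 27 and 38 UMIs, an interval that overlaps the one from all UMIs, and it was −0.84, −0.62, −0.94 and −0.59 with 1, 2, 3 and 4 status genes, where the intervals with 2 (−1.37 to 0.08) and 4 (−3.06 to 1.30) also included 0.

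Penk by status rested on few cells. Of the 49 WT cells with Penk, 31 were Il5-positive at equal depth, which is 1.22% of Il5-positive and 0.353% of Il5-negative cells. By Il13 the shares were 1.38% and 0.519%, by Nr4a3 0.998% and 0.384%, and by Calca 0.897% and 0.529%. With all UMIs the WT level was 2.87-fold to 3.98-fold higher in cells with than without these genes. At equal depth 41 UMIs were left, with ratios of 2.84-fold by Il5 (1.46 to 5.63), 3.86-fold by Il13 (1.93 to 7.52), 1.19-fold by Nr4a3 (0.610 to 2.31) and 2.37-fold by Calca (1.22 to 4.62). These moved widely with the draw. Over 20 thinnings the WT ratio ran from 0.735-fold to 10.7-fold by Il5, from 1.72-fold to 12.2-fold by Il13, from 0.974-fold to 3.48-fold by Nr4a3 and from 0.374-fold to 4.35-fold by Calca. Without barcodes over 2 times the median depth the log2 ratio was −0.66 by Nr4a3 and −0.000725 by Calca. By Il13 the thinned UMIs with it lay in 4 cells, and the shares of cells were 0.368% with and 0.260% without, so no direction is read for Penk at equal depth. By the number of status genes found, with all UMIs, WT cells had 0.687 CPM of Penk with none, 1.36 with 1, 4.32 with 2, 5.34 with 3 and 21.9 with 4, in 0.273%, 0.390%, 0.853%, 1.53% and 2.42% of cells, the last on 5 cells and with the same differences in depth as for Tph1. In Pac1-KO the 11 cells split into 4 with and 7 without Il5, and only 9 thinned UMIs in 4 cells were left, so no ratio is read there. Of the 14 Pac1-KO Ddc cells, 2 were Il5-positive and 4 Nr4a3-positive at equal depth, of 1285 and 1662 such cells.

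The other pathway genes stood on both sides by Nr4a3. At equal depth Gch1 was higher with Nr4a3 in both libraries (1.55-fold in WT and 2.28-fold in Pac1-KO), as was Slc18a2 (1.35-fold and 1.95-fold), and Furin (1.65-fold and 1.92-fold). Pts was lower (0.574-fold and 0.791-fold), as were Spr (0.665-fold and 0.766-fold) and Pomc (0.645-fold and 0.683-fold). By Nr4a3 the median gene stood at log2 −0.24 in WT and −0.27 in Pac1-KO. The Pac1-KO intervals of Pts, Spr and Pomc and the WT interval of Spr included that median. Pcsk1 stood at 0.892-fold and 0.891-fold, with intervals that included 1-fold. The other status genes did not always give the same. Gch1 by Calca was 1.06-fold in WT (log2 −0.11 to 0.26) and 1.41-fold in Pac1-KO, and Slc18a2 by Calca was 1.58-fold in WT and 1.18-fold in Pac1-KO (log2 −0.38 to 0.83). Furin was 1.37-fold to 2.0-fold higher by Il5, Il13 and Calca, with all intervals above 1-fold. In WT Pcsk1 was lower with Il5 (0.778-fold), Il13 (0.799-fold) and Calca (0.802-fold), with intervals below 1-fold. These WT intervals included the median gene (log2 −0.19, −0.13 and −0.18), so Pcsk1 was not set apart from the typical gene. In Pac1-KO the Pcsk1 intervals for these status genes included 1-fold.

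To ask which genes were most like Tph1, CPM in thinned cells was compared between cells with and without it. By the rule set for this, no member was found in 100 thinned cells of each library (169 and 77 for Tph1). Tph1 cells were therefore taken from all UMIs, 490 in WT and 271 in Pac1-KO, a choice made after the values were seen, and 8627 other genes were ranked by the smaller of the 2 libraries' log2 ratios. C9orf72 led, with 78.9 CPM in WT Tph1 cells against 26.6 CPM in the others and 51.7 against 20.7 CPM in Pac1-KO (log2 ratios 1.28 and 1.01 after 10 CPM was added). Crem, a cAMP-responsive transcription factor, followed with 701 against 384 CPM and 394 against 189 CPM (0.85 and 1.02). Calca came next (0.84 and 1.05), followed by the chemokine Cxcl1 (0.85 and 0.81), Lin54 (0.85 and 0.81), Cwc25 (0.86 and 0.81), Pak1 (0.80 and 1.44) and Dgat2 (0.78 and 0.92). Of the other status genes Il5 ranked 9, Il13 12 and Nr4a3 33. Tph1 cells were deeper than the others, and thinning equalised only the other genes.

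**Figure D5:**
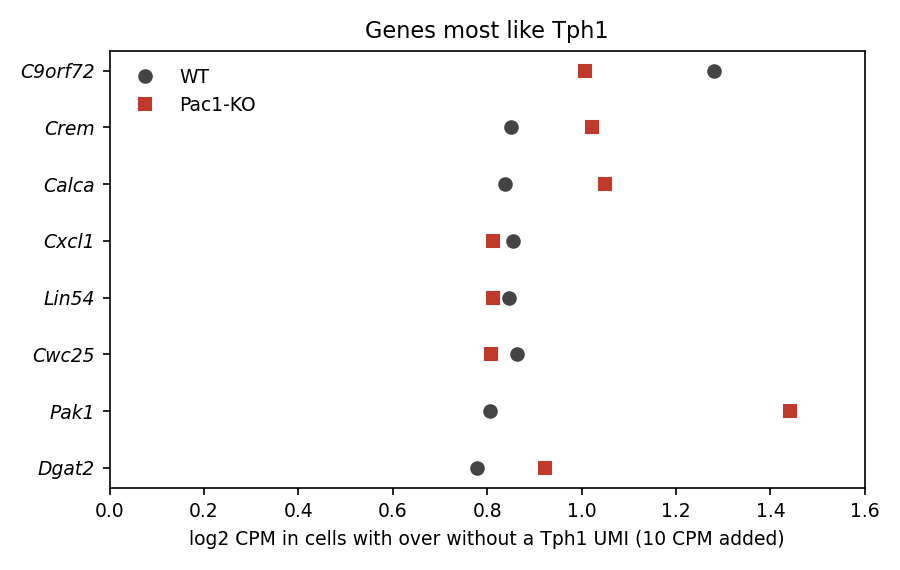
Log2 ratio of CPM in thinned cells with over without a Tph1 UMI (10 CPM added to both) for the 8 genes most like Tph1, in WT (grey circles) and Pac1-KO (red squares). All 16 ratios are above 0.7 and C9orf72 has 1.28 and 1.01.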

How the data were processed

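The authors made 10x Genomics 3′ v3.1 libraries from sorted, pooled lung ILC2s and aligned the reads to mm10 with Cell Ranger, version 6.1.1 per the submitters' processing notes and 4.0.0 per the file headers. What was deposited by the authors is 1 table per library that holds, without any scaling, UMI counts of each gene in each barcode. The members and the gene lists were chosen with earlier results of these data known. Levels were summed UMIs over total UMIs, with exact Poisson intervals for CPM, exact conditional binomial intervals for ratios and Clopper-Pearson intervals for shares, all at 95% and for counting error only. A count of 0 was given a limit of 3 counts. Status was read in cells thinned without replacement to 1500 UMIs, chosen among 500, 1000, 1500, 2000 and 3000 UMIs as the largest depth reached by 90% of cells in both libraries, and a gene counted as 2-fold apart by status when both libraries gave it in the same direction. Genes were named by rule: the members, the status genes, the genes of the serotonin, acetylcholine, enkephalin and other transmitter lists with at least 50 UMIs, the 5 other neuropeptides and receptors with the most UMIs, and the 8 genes most like a member. A further list is not reported here. Doublets were kept, and an alternative removed those predicted from simulated doublets. Coordinates are from GENCODE M21 for GRCm38 and promoter windows from RefSeq for GRCm38.p6. RefSeq windows matched 4 of the 5 members. The work was done in Python 3.11.15 with pandas 2.3.3, numpy 2.4.6, matplotlib 3.10.9, scikit-learn 1.9.0 and scipy 1.17.1, and ratios, calls and thinning were tested on simulated data.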

Additional observations from a re-analysis of the deposited data

How the results depend on the processing

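No paired analysis was possible because each genotype had 1 library, and leaving out a replicate was likewise impossible. All values here are log2 ratios unless they are counts. Tph1 over the libraries, −1.20 as counted, was −1.39 when scaled by the median gene, −0.97 in thinned cells and −0.99 without barcodes over 2 times the median depth. Penk was −2.65 without the top cells, −1.97 in thinned cells, −3.53 without deep barcodes and −5.38 with a stricter cell filter (1000 to 2500 genes, less than 5% mitochondrial; 95% interval −10.71 to −2.83), which left out 33.8% of WT and 42.4% of Pac1-KO cells. Both kept their direction. The count of 2 members past 2-fold held under all 8 alternatives, relative to the median gene except when scaled by total UMIs. As counted, Tph1 was under 2-fold in thinned cells and without deep barcodes. Over all genes 257 were higher and 633 lower, against 146 and 363 in thinned cells, 671 and 1137 with a minimum of 10 UMIs, and 439 and 410 when scaled by total UMIs, a share of higher genes of 51.7% instead of 28.9%. Tph1 by status kept its direction under every alternative run. By Il5 it was 0.87 without thinning, 1.74 for 2 or more UMIs, 0.73 with all UMIs of Tph1 and 0.68 in the lowest of 20 thinnings (WT), and 1.47 for 2 or more UMIs (Pac1-KO). By Il13 the lowest thinning gave 0.16 (WT) and 0.29 (Pac1-KO), and in Pac1-KO the highest gave 2.15 and 2 or more UMIs 2.19. By Nr4a3 it was 1.14 at 1000 UMIs, 0.82 with all UMIs and 1.09 in the lowest thinning (WT), and 1.74 in the highest (Pac1-KO). By Calca it was 0.65 with all UMIs and 0.63 and 1.57 in the lowest and highest thinning (WT), and 1.83 in the highest (Pac1-KO). The count of members past 2-fold in both libraries moved between 0 and 1. Without thinning and with all UMIs the member counted was Penk and not Tph1, also by Nr4a3 with all UMIs, where the count stayed 1 but Tph1 was under 2-fold in WT. It was 0 for Nr4a3 without thinning and in the lowest thinning. It was 1 for Il5 without thinning, for 2 or more UMIs, with the stricter cell filter, with all UMIs and in the highest thinning, 1 for Il13 without thinning and in the highest thinning, and 1 for Calca in both of these, at 1000 and 3000 UMIs, for 2 or more UMIs, with the stricter filter, without predicted doublets, without deep barcodes and with all UMIs. Penk by status reversed in the lowest thinning (Il5 −0.44 in WT and −0.28 in Pac1-KO, Nr4a3 −0.038 and −1.21, Calca −1.42 and −0.73), by Il13 with all UMIs (−0.54, Pac1-KO), by Nr4a3 with the stricter filter (−0.68, WT), and without deep barcodes by Nr4a3 (−0.66, WT) and Calca (−0.000725, WT). The cause was not tested. Counts of all genes 2-fold higher and lower with a status gene ranged over the settings from 36 to 120 and 40 to 512 (Il5), 11 to 63 and 51 to 660 (Il13), 30 to 155 and 31 to 456 (Nr4a3), and 25 to 108 and 32 to 313 (Calca). Ddc, Chat and Slc18a3 were limited by depth, and mouse-to-mouse spread could not be estimated.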
